A study of Mus musculus with 154 samples.

Results

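Liver gene expression was compared between mice in which 1 copy of chromosome 8 came from the inbred strain A/J and mice of the strain C57BL/6J (B6). The members were all mice whose strain label is (B6.A8 X B6)F1, 8 in number, and all mice labelled B6, 20 in number, which together were 28 of the 154 mice of 24 strains in the series. In these labels the sire is written first, so the A/J chromosome came from a B6.A8 father and the B6 copy from a B6 mother. B6.A8 is a chromosome substitution strain (CSS), a B6 mouse with chromosome 8 replaced by that of A/J. The F1 mice were therefore heterozygous along chromosome 8 and carried B6 alleles on both copies of every other chromosome, as far as the breeding of the CSS panel goes. All mice were male, 5 weeks old and fasted overnight. The labels and methods describe no other allele in either group, and all mice were anaesthetised with isoflurane before they were killed.

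A further set of mice carried the same substitution. They were the 19 mice of the 4 double CSSs (B6.A8 X B6.A3)F1, (B6.A8 X B6.A6)F1, (B6.A8 X B6.A14)F1 and (B6.A8 X B6.A17)F1 (3, 6, 5 and 5 mice), heterozygous for chromosome 8 and for 1 other A/J chromosome. Each was set against the single CSS of its other chromosome, (B6 X B6.A3)F1, (B6 X B6.A6)F1, (B6 X B6.A14)F1 or (B6 X B6.A17)F1, with 8 mice each and 32 in all. None of these mice entered the comparison with B6.

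A chromosome substitution separates the genes that lie on the exchanged chromosome, whose own regulatory sequence differs between the strains, from all other genes, whose DNA is the same in both groups as far as the breeding of the strains goes. Chromosome 8 of the mouse holds clusters of carboxylesterases, metallothioneins and defensins and single genes with large outputs in liver, among them angiotensinogen, haptoglobin, the transaminases Tat, Got2 and Gpt2, and the clotting factors F7 and F10. Fasting liver makes glucose from amino acids and lactate and burns fatty acids, and the male liver also secretes major urinary proteins (Mups), whose genes follow the pulses of growth hormone.

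Between 6752637 and 25630807 reads were counted per B6 mouse and between 12679770 and 27281291 per (B6.A8 X B6)F1 mouse. Levels are given as CPM, that is, counts divided by library size after scaling by the TMM method. The tissue matched its label, since the 12 defining hepatocyte genes summed to between 124751 and 188272 CPM (median 145882) in B6 and to between 69140 and 135095 CPM (median 98649) in (B6.A8 X B6)F1. In bulk liver, fewer cells of a type and less RNA per cell cannot be told apart. The composition of the libraries differed between the groups. The genes of the mitochondrial genome took between 6.77% and 11.6% (median 8.53%) of the counts in B6. They took between 9.42% and 20.8% (median 14.6%) in (B6.A8 X B6)F1 and between 6.90% and 9.58% (median 7.91%) in the 19 double CSS mice. In the 32 single CSS mice, which lack the substitution, their share lay between 5.64% and 18.5% (median 9.65%). The 81 small RNA genes, which are snoRNAs, snRNAs and scaRNAs, summed to between 534 and 1934 CPM (median 828) in B6 and to between 887 and 2036 CPM (median 1623) in (B6.A8 X B6)F1.

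Genes were called when the p-value of edgeR's quasi-likelihood F-test, adjusted by the Benjamini-Hochberg method over all 13289 genes, was under 0.05. The fit held all strains and 5 surrogate variables, as the study's own did. Among the 28 mice compared, surrogate variables 1 and 2 each had a squared correlation of 0.30 with strain, and the others 0.11 or less. The fitted effects were therefore adjusted for variables that partly followed strain. Against B6, 3937 genes (29.6%) were called, 1718 (12.9%) higher and 2219 (16.7%) lower in (B6.A8 X B6)F1. On chromosome 8, 229 genes, 33.1% of those tested there, were called, 91 of them higher and the others lower (39.7% higher). On the other chromosomes, 3702 of 12551 genes (29.5%) were called, 1621 higher and 2081 lower (43.8% higher). With total counts in place of TMM scaling, 25.0% of the calls on chromosome 8 and 29.8% of those elsewhere were higher. The median absolute log2 fold change of the called genes was 0.31 on chromosome 8 and 0.30 elsewhere.

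Differences without any overlap between mice were a larger share of the genes on chromosome 8 than elsewhere. The CPM of the 8 and the 20 mice did not overlap at all for 127 genes (0.956%) of all those tested, 0.316% higher and 0.640% lower. Among them were 18 genes of chromosome 8, 8 higher and 10 lower (2.60% of those tested there), and 108 genes elsewhere, 33 higher and 75 lower (0.860% of 12551). On chromosome 8 the genes entirely above B6 were Arhgef10, Gm26853, 2610005L07Rik, Gm21092, Fut10, Spcs3, Sntb2 and Fam89a, and those entirely below were F7, F10, Hgsnat, Mri1, Gcdh, Man2b1, Got2, Thap11, Tcf25 and Agt.

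Among the double CSSs, 890 genes (6.70%, with 3.08% higher and 3.62% lower) were called for the mean of double minus single CSS over the 4 pairs. They included 101 genes of chromosome 8 (14.6%; 61 higher, 40 lower) and 785 elsewhere (6.25%; 346 higher, 439 lower), so here the share was larger on chromosome 8 than elsewhere. The pair of chromosome 14, with 5 of the 19 double CSS mice, had most of the calls when each pair was tested by itself. The CPM of the 19 double and 32 single CSS mice did not overlap for 6 genes (0.0452%), 5 of them on chromosome 8. A total of 449 genes were called in both sets of mice, 73 in the same direction (0.549%) and 376 in opposite directions (2.83%). On chromosome 8, 41 of the 59 genes called in both had the same direction, 22 higher and 19 lower. On the other chromosomes only 31 of 389 had the same direction, and 358 were opposite. By chromosome, genes called in the same direction in both sets made up 5.93% of the genes tested on chromosome 8 and between 0% and 0.632% on each other autosome and the X.

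The opposite calls came mainly from the pair of chromosome 14, (B6.A8 X B6.A14)F1 against (B6 X B6.A14)F1. In this pair 1080 genes were higher (8.13%) and 915 lower (6.89%) in the double CSS. Which strain of a pair had moved away from B6 was not tested. The pair of chromosome 6 had 99 higher (0.745%) and 112 lower (0.843%), that of chromosome 17 had 22 (0.166%) and 14 (0.105%), and that of chromosome 3 had 14 (0.105%) and 1 (0.00753%). Of the genes elsewhere that were also called against B6, 1132 were opposite and 26 the same in the pair of chromosome 14, 71 and 14 in that of chromosome 6, 1 and 2 in that of chromosome 3 and 0 and 14 in that of chromosome 17. On chromosome 8 the pair of chromosome 14 had 60 opposite and 25 the same, and the other pairs together had 3 opposite calls, all in the pair of chromosome 6.

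In the mean over the pairs of chromosomes 3, 6 and 17, a setting chosen after the data were seen, 157 genes (1.18%) were called, 0.549% higher and 0.632% lower. They were 48 genes of chromosome 8 (6.95%) and 108 elsewhere (0.860%). Of those also called against B6, 33 had the same direction and 2 the opposite on chromosome 8, and 26 and 10 elsewhere. The direction on chromosome 8 also depended on the fit over the 4 pairs. With 10 surrogate variables in place of 5, 31 genes of chromosome 8 had the same direction and 1 the opposite (elsewhere 17 and 12), but the majority turned around with none (52 the same, 62 opposite), with none on only the mice compared (43 and 47) and with total counts in place of TMM (32 and 36). In the text that follows, a value in the double CSSs is the mean over the 4 pairs unless it is said to be without the pair of chromosome 14.

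**Figure D1:**
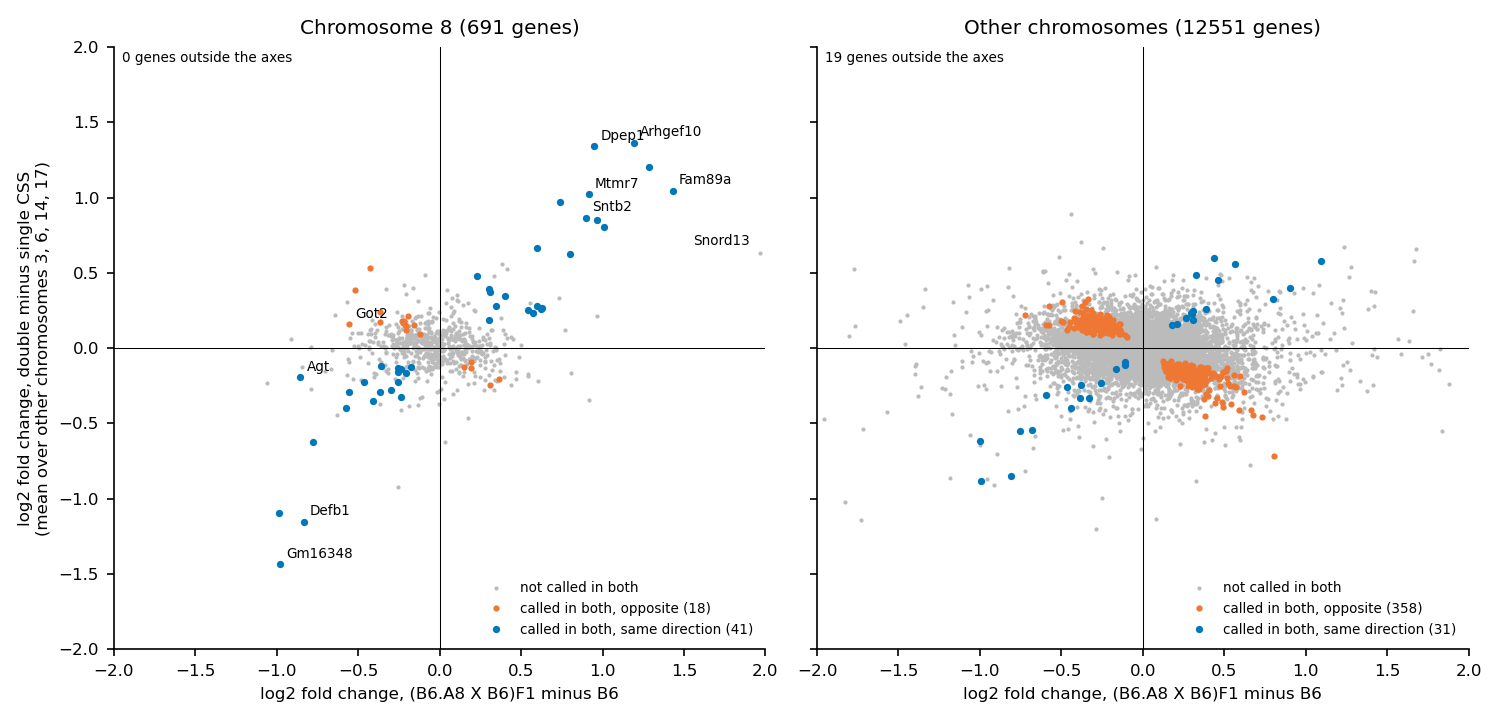
Each point is a gene, with the log2 fold change of (B6.A8 X B6)F1 against B6 on the horizontal axis and the mean log2 fold change of double against single CSS on the vertical axis, for chromosome 8 (left) and the other chromosomes (right). Blue points, called in both with the same direction, numbered 41 on the left and 31 on the right, and orange points, called in opposite directions, 18 and 358.

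Arhgef10, which encodes a guanine nucleotide exchange factor for small GTPases (chromosome 8, 14911663 to 15001085 on the plus strand of GRCm38), was the most strongly called gene in the double CSSs. Its level was between 2.22 and 4.59 CPM (median 3.51) in B6 and between 8.14 and 10.1 CPM (median 8.56) in (B6.A8 X B6)F1. All 8 mice lay above all 20. In the single CSSs it lay between 2.703 and 4.84 CPM (median 3.45) and in the double CSSs between 6.97 and 13.6 CPM (median 8.90), with no overlap there either. The log2 fold change was 1.19 ± 0.11 (SE), adjusted p = 1.31e-15, against B6, and 1.36 ± 0.075 (SE), adjusted p = 1.50e-33, in the double CSSs. Within the 4 pairs of strains, in which the other chromosome was 3, 6, 14 or 17, the log2 fold changes were 1.61, 1.29, 1.28 and 1.27.

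Sntb2 encodes beta-2-syntrophin, an adaptor of the dystrophin complex, and lies at 106935750 to 107019714 on the plus strand. It was measured between 5.27 and 9.15 CPM (median 6.11) in B6, between 10.3 and 12.9 CPM (median 11.7) in (B6.A8 X B6)F1, between 10.4 and 14.6 CPM (median 12.4) in the double CSSs and between 3.90 and 9.09 CPM (median 6.32) in the single ones. The log2 fold changes were nearly equal, 0.90 ± 0.084 (SE), adjusted p = 6.35e-16, against B6, and 0.87 ± 0.055 (SE), adjusted p = 5.06e-28, in the double CSSs. Arhgef10 and Sntb2 were the only genes of the table (0.0151%) whose CPM in all 27 mice with the A/J chromosome 8 lay above those of all 127 mice without it.

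Other genes of chromosome 8 rose by more than 0.5 on the log2 scale in both sets of mice. Fam89a was measured between 1.10 and 5.92 CPM (median 2.93) in B6 and between 6.16 and 9.26 CPM (median 6.91) in (B6.A8 X B6)F1, with no overlap and a log2 fold change of 1.43 ± 0.18 (SE), adjusted p = 2.00e-10. The corresponding value in the double CSSs was 1.05 ± 0.12 (SE), adjusted p = 1.27e-12. Fut10, a fucosyltransferase gene at a low level, rose from a median of 0.946 CPM (0.359 to 1.49) to a median of 2.30 CPM (1.52 to 3.15), also without overlap, with log2 fold changes of 1.28 against B6 and 1.2001 in the double CSSs. Nudt7 encodes a peroxisomal diphosphatase that cleaves coenzyme A. It lay between 74.4 and 268.1 CPM (median 136.6) in B6 and between 166 and 539 CPM (median 213) in (B6.A8 X B6)F1, where the groups overlapped, and its log2 fold changes were 1.01 and 0.80 (adjusted p = 7.93e-05 and 2.18e-05).

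Mtmr7, a phosphoinositide phosphatase of the myotubularin family, rose, with log2 fold changes of 0.92 against B6 and 1.02 in the double CSSs. Dpep1, a membrane dipeptidase, rose, with log2 fold changes of 0.95 and 1.344, and Sult5a1, a sulfotransferase gene, with log2 fold changes of 0.97 and 0.85. For all 3 genes the CPM of (B6.A8 X B6)F1 and B6 overlapped. Ints10, a subunit of the Integrator complex that processes small nuclear RNAs, rose, with log2 fold changes of 0.60 and 0.66, and Zdhhc2, a palmitoyltransferase gene, with log2 fold changes of 0.80 and 0.63. The difference between the effects in the 2 sets of mice was itself tested in the same fit and called for 4238 genes (31.9%). It was not called for any of Arhgef10, Sntb2, Fam89a, Fut10, Nudt7, Mtmr7, Dpep1, Sult5a1, Ints10 or Zdhhc2, whose adjusted p for the difference lay between 0.16 (Fam89a) and 0.869 (Sntb2). These genes were grouped because they rose in both sets of mice. That choice by itself makes a called difference less likely, so no conclusion is drawn from it.

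Of the carboxylesterases, enzymes that hydrolyse esters and lie in 2 clusters on chromosome 8, 14 were measured, and 4 were called, 2 higher and 2 lower, which is 28.6% against 29.6% of all genes and 33.1% of those on chromosome 8. Ces1b rose from a median of 71.5 CPM (52.6 to 104) to a median of 100.5 CPM (82.5 to 142), with a log2 fold change of 0.74 ± 0.11 (SE), adjusted p = 2.29e-08. In the double CSSs it lay between 98.7 and 174 CPM (median 135.7), above all single CSS mice, and the log2 fold change was 0.97 ± 0.07 (SE), adjusted p = 4.84e-24. Ces2c had a log2 fold change of 0.77 ± 0.30 (SE), adjusted p = 0.0401, and medians of 4.004 CPM in B6 and 3.95 CPM in (B6.A8 X B6)F1. The medians thus did not differ in the fitted direction, and the call was lost without replicate 2, 5 or 8 of (B6.A8 X B6)F1 (adjusted p = 0.0893, 0.064 and 0.103). Ces1c (-0.29 ± 0.081 (SE), adjusted p = 0.0034) and Ces2g (-0.40 ± 0.12 (SE), adjusted p = 0.00617) fell against B6, and in the double CSSs, where their log2 fold changes were 0.016 and 0.072, neither was called. The remaining 10, among them Ces1d, Ces1f, Ces2a and Ces3a, had log2 fold changes between -0.33 (Ces1g) and 0.33 (Ces2a) and were not called against B6. Ces2a was called in the double CSSs (0.48, adjusted p = 0.0333), but not without the pair of chromosome 14 (0.26, adjusted p = 0.538).

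Among the genes lower in both sets of mice, Defb1, the beta-defensin 1 gene whose product is an antimicrobial peptide, was measured between 4.07 and 17.6 CPM (median 8.26) in B6 and between 4.36 and 6.76 CPM (median 5.79) in (B6.A8 X B6)F1. The groups overlapped, and the log2 fold change was -0.83 ± 0.17 (SE), adjusted p = 3.38e-05. In the double CSSs it lay between 1.68 and 6.78 CPM (median 2.95), while the single CSSs lay between 4.47 and 16.3 CPM (median 8.21), a log2 fold change of -1.15 ± 0.12 (SE), adjusted p = 3.41e-14. The processed pseudogene Gm5345 fell from a median of 3.15 CPM (2.07 to 3.88) to a median of 1.52 CPM (1.13 to 2.18), with log2 fold changes of -0.99 ± 0.14 (SE), adjusted p = 2.00e-08, and -1.09 ± 0.095 (SE), adjusted p = 2.64e-18, in the double CSSs. The noncoding transcript Gm16348 fell, with log2 fold changes of -0.98 and -1.43. Haptoglobin (Hp), the plasma protein that binds free haemoglobin, fell from a median of 2666 CPM (1961 to 5217) to a median of 1639 CPM (1368 to 2544). Its log2 fold changes were -0.56 against B6 and -0.29 in the double CSSs (adjusted p = 8.56e-05 and 0.0109), and the second call was lost without the pair of chromosome 14 (-0.30, adjusted p = 0.0723). Saraf, a regulator of store-operated calcium entry, had -0.30 and -0.28, and Tmem184c -0.37 and -0.29.

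**Figure D2:**
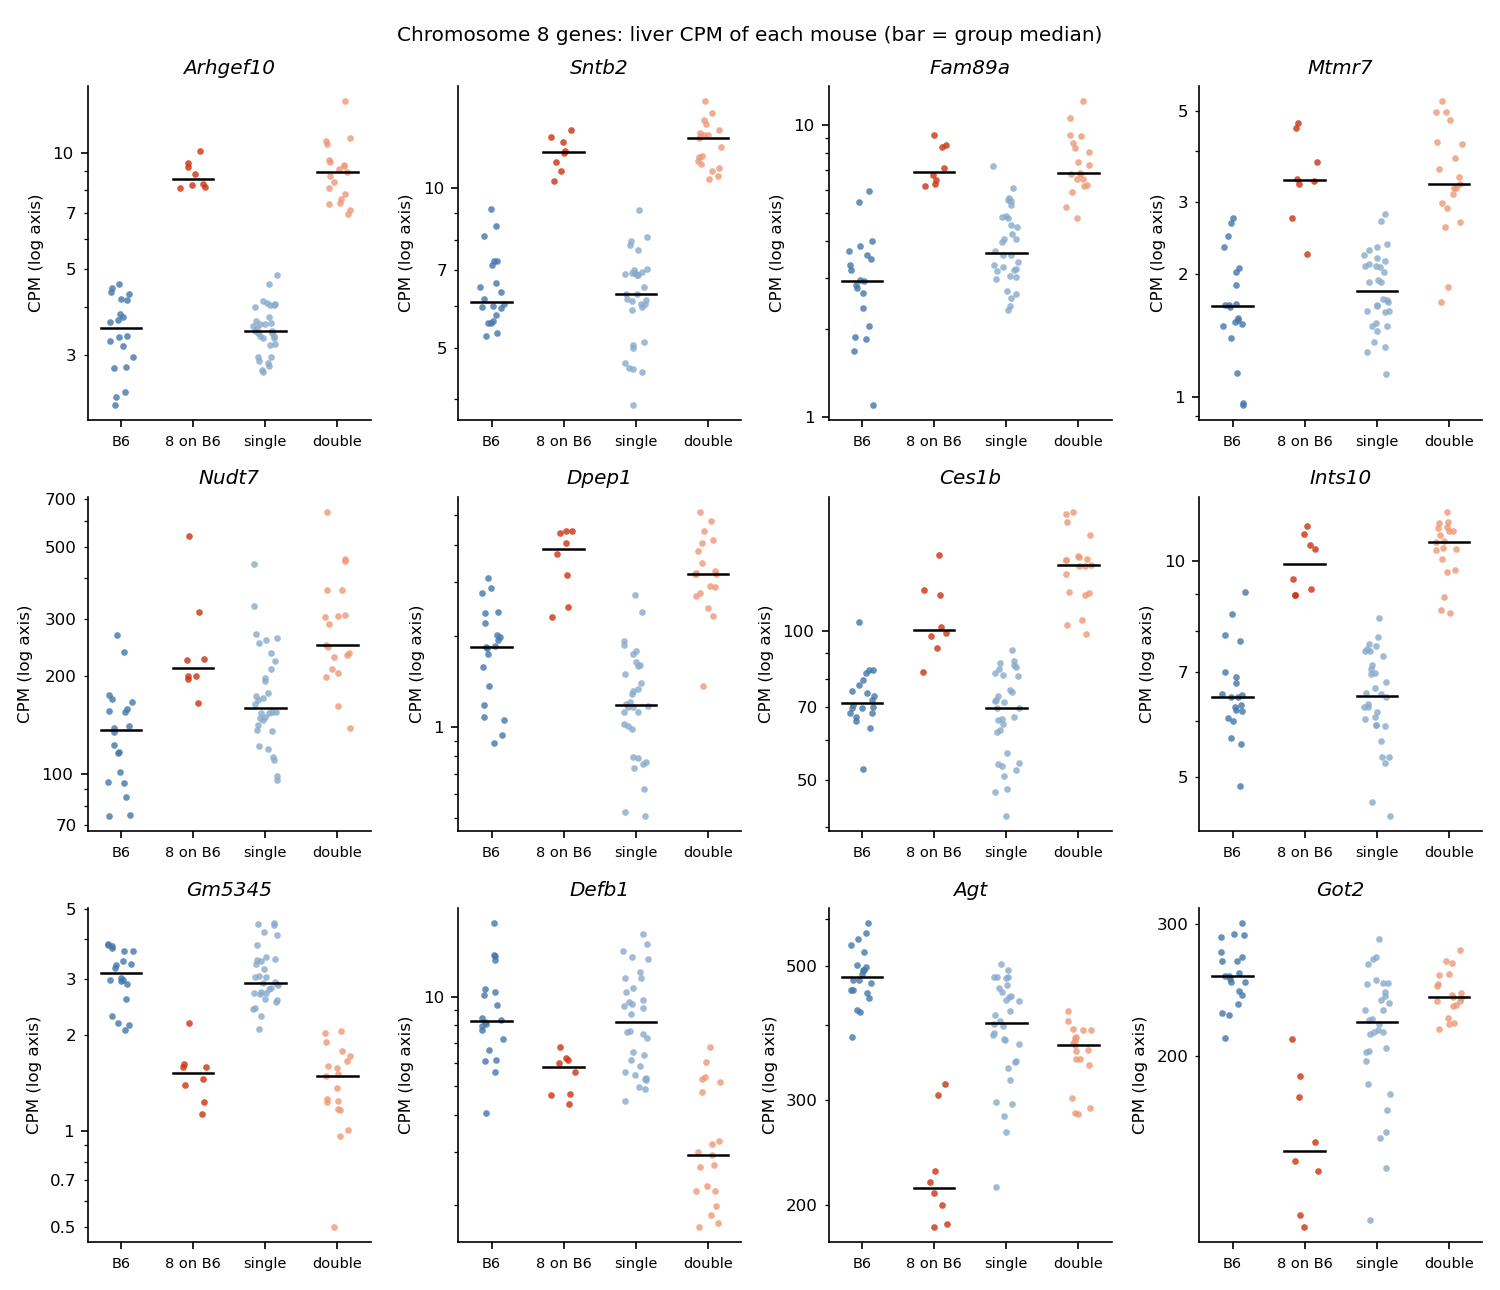
Each point is the CPM (log axis) of 1 mouse for 12 genes of chromosome 8, with a bar at the group median. The columns are B6 (20 mice), (B6.A8 X B6)F1 ("8 on B6", 8 mice), the single CSSs of chromosomes 3, 6, 14 and 17 (32 mice) and the double CSSs with chromosome 8 (19 mice). Arhgef10 and Sntb2 separate both pairs of columns completely, whereas Agt and Got2 separate only the first pair.

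A short stretch near 20 Mb held 5 genes that rose in both sets. Gm6483, Gm26853, 6820431F20Rik, 2610005L07Rik and Gm21092 start between positions 19682449 and 20567597, bounds set by these genes themselves, where 6 genes were tested. They are noncoding genes or pseudogenes in a stretch rich in copied sequence, where reads may be assigned among copies with error, so their separate values are uncertain. Gm26853 was highest, between 21.1 and 32.3 CPM (median 26.1) in B6 and between 35.6 and 55.4 CPM (median 45.6) in (B6.A8 X B6)F1, without overlap. The 5 log2 fold changes against B6 lay between 0.35 and 0.63, and those in the double CSSs between 0.25 and 0.28. Without the pair of chromosome 14, 2610005L07Rik and 6820431F20Rik were no longer called there (adjusted p = 0.107 and 0.207). For Gm26853, Gm21092, Gm6483 and 2610005L07Rik the effect against B6 was larger than that in the double CSSs by the test of the difference (adjusted p between 0.000165 and 0.0278). Spcs3, a subunit of the signal peptidase that trims secreted proteins, showed the same order, with between 56.4 and 80.6 CPM (median 69.0) in B6, between 82.7 and 117.4 CPM (median 97.1) in (B6.A8 X B6)F1 and log2 fold changes of 0.57 and 0.23 (adjusted p of the difference = 4.26e-05).

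Agt encodes angiotensinogen, the liver-made precursor of the angiotensins that regulate blood pressure (chromosome 8, 124556534 to 124569706 on the minus strand). It was measured between 381 and 589.8 CPM (median 480.3) in B6 and between 184 and 319 CPM (median 214) in (B6.A8 X B6)F1. All 8 mice lay below all 20, and the log2 fold change was -0.85 ± 0.086 (SE), adjusted p = 2.99e-14. In the double CSSs it lay between 283.8 and 420.9 CPM (median 369.3), within the range of the single CSSs, between 214.6 and 504 CPM (median 403). There the log2 fold change was -0.19 ± 0.056 (SE), adjusted p = 0.0185, and the 2 effects differed by 0.66 ± 0.10 (SE), adjusted p = 7.88e-08. Within the pairs the log2 fold changes were -0.44, -0.30, 0.12 and -0.16 for chromosomes 3, 6, 14 and 17.

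Several enzymes and carriers of amino acids on chromosome 8 were lower against B6 and were not called lower in the double CSSs. Got2, the mitochondrial aspartate aminotransferase of the malate-aspartate shuttle, fell from a median of 255 CPM (211 to 301) to a median of 149 CPM (118 to 210.5), without overlap, with a log2 fold change of -0.55 ± 0.067 (SE), adjusted p = 1.24e-10. In the double CSSs it was called in the other direction, 0.16 ± 0.044 (SE), adjusted p = 0.0133, but not without the pair of chromosome 14 (0.078, adjusted p = 0.513). Tat, the tyrosine aminotransferase induced by glucocorticoids and fasting, lay between 1331 and 3765 CPM (median 2749.8) in B6 and between 822 and 1941 CPM (median 1265) in (B6.A8 X B6)F1, with a log2 fold change of -0.91 ± 0.21 (SE), adjusted p = 0.00024. Gpt2, the mitochondrial alanine aminotransferase, fell, with a log2 fold change of -0.66, and Slc7a2, which carries arginine and lysine into the cell, with a log2 fold change of -0.79. For Tat, Gpt2 and Slc7a2 the double CSSs gave log2 fold changes of 0.059, -0.016 and 0.0071. The difference between the effects was called for each of these genes (adjusted p = 2.90e-11, 0.000681, 2.91e-05 and 5.08e-06 for Got2, Tat, Gpt2 and Slc7a2), and also without the pair of chromosome 14.

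Lcat, which esterifies cholesterol on lipoproteins, fell from a median of 332 CPM (282 to 363) to a median of 204 CPM (171 to 288), with a log2 fold change of -0.43 ± 0.051 (SE), adjusted p = 3.17e-11. The clotting factor genes F7 (-0.42) and F10 (-0.36) fell without overlap of the groups, and F11 (-0.20, adjusted p = 0.132) was not called. Tm6sf2, which takes part in the lipidation of very low density lipoprotein, fell, with a log2 fold change of -0.50. Their values in the double CSSs lay between 0.013 and 0.091 for Lcat, F7, F10 and Tm6sf2, and none was called. Lpl, lipoprotein lipase, was lower against B6 (-0.43) and higher in the double CSSs (0.53), both called. Without the pair of chromosome 14 the latter was 0.43, with an adjusted p of 0.05003. Its median was 65.5 CPM in B6 and 66.1 CPM in (B6.A8 X B6)F1, so the direction of the fitted value is not that of the medians.

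Man2b1, the lysosomal alpha-mannosidase, lay between 77.1 and 115 CPM (median 97.5) in B6 and between 51.04 and 70.6 CPM (median 60.3) in (B6.A8 X B6)F1, without overlap, with a log2 fold change of -0.56 ± 0.066 (SE), adjusted p = 2.75e-11. Hgsnat, which acetylates heparan sulfate (-0.44, no overlap), Galns, a sulfatase (-0.67), and Aga, which cleaves asparagine-linked sugars (-0.23), were called lower. These 4 were chosen after their values were seen. Only Aga was called in the double CSSs (-0.14, adjusted p = 0.049), and the call was lost without the pair of chromosome 14 (adjusted p = 0.153). Gcdh, the glutaryl-CoA dehydrogenase of lysine breakdown, fell without overlap with log2 fold changes of -0.36 and -0.12 in the double CSSs. Mri1, an enzyme of methionine salvage, fell, with log2 fold changes of -0.46 and -0.23. Cdh1, which encodes E-cadherin, fell, with a log2 fold change of -0.84 ± 0.13 (SE), adjusted p = 1.48e-07, from a median of 30.3 CPM (22.4 to 42.6) to a median of 16.8 CPM (8.04 to 24.8). Its value in the double CSSs was -0.13.

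Mt1, 1 of the 2 liver metallothioneins that bind zinc and copper, fell from a median of 276 CPM (109 to 570.5) to a median of 124.4 CPM (75.5 to 216), with a log2 fold change of -1.06 ± 0.26 (SE), adjusted p = 0.000646. Its neighbour Mt2 lay between 50.3 and 304 CPM (median 127) in B6 and between 31.8 and 123 CPM (median 73.7) in (B6.A8 X B6)F1, a log2 fold change of -0.63 ± 0.30 (SE), adjusted p = 0.0964, which was not called. Neither was called in the double CSSs (-0.23 and -0.44). Hmox1, the haem oxygenase, lay between 14.5 and 119 CPM (median 21.2) in B6 and between 12.6 and 24.8 CPM (median 15.9) in (B6.A8 X B6)F1, where the highest B6 mouse stood far above the others of its group. Its log2 fold change was -0.70 ± 0.17 (SE), adjusted p = 0.000811, and -0.15 in the double CSSs. Herpud1, a component of the machinery that removes misfolded proteins from the endoplasmic reticulum, fell, with a log2 fold change of -0.64, and had 0.22 in the double CSSs.

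Small nucleolar RNAs were among the largest increases. They guide chemical changes of ribosomal RNA or help to cut it, and 4 of the 5 measured on chromosome 8 were called, all higher. The called ones with an average log2 CPM above 1 were Snord13, Snora68 and Gm26397. Snora68 and Gm26397, which belong to the H/ACA class by their ends, 3 bases after an ACA box, are shown as examples of this class from the GRCm38 genome, in lower case with that box in capitals.
Snora68: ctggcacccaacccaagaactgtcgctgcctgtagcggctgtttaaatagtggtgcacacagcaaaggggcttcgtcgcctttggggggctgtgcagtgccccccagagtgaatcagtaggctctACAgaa
Gm26397: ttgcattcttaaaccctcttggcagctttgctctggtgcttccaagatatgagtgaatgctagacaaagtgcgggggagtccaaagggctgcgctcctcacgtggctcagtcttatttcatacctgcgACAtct

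Snord13 lay between 1.25 and 17.6 CPM (median 3.96) in B6 and between 11.8 and 27.8 CPM (median 17.2) in (B6.A8 X B6)F1, with a log2 fold change of 1.97 ± 0.32 (SE), adjusted p = 6.00e-07. Snora68 (chr8:70895759-70895889, minus strand) rose, with a log2 fold change of 0.92, and Gm26397 (chr8:126944847-126944980, minus strand) with a log2 fold change of 0.81. The values in the double CSSs were 0.63, -0.35 and -0.16, none of them called. The rise was not particular to chromosome 8. Of the 61 snoRNA genes tested, 48 were called, all higher, with a median log2 fold change of 0.91, and of 11 snRNA genes 9 were higher, with a median of 0.90. No snoRNA or snRNA gene was called in the double CSSs, where the medians were -0.058 and -0.0019. With the summed level of the 81 small RNA genes as a covariate, chosen after the data were seen, Snord13 was still called, Gm26397 was not, and the value of Snora68 changed sign to -0.21.

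Called genes were spread along chromosome 8. In windows of 10 Mb the share called against B6 lay between 24.1% (110 to 120 Mb) and 39.6% (90 to 100 Mb). In the double CSSs it lay between 0% (0 to 10 Mb) and 32.1% (30 to 40 Mb), and genes with the same direction in both sets were found in every window but the first. The window from 120 to 130 Mb held 8 of them and that from 80 to 90 Mb held 7.

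GC content moved with the direction of the calls. Protein-coding genes were split into 5 groups of equal size by the GC content of their longest transcript. In the lowest group (31.0% to 43.6% GC) 30 genes of chromosome 8 were called higher and 5 lower against B6, and in the highest (55.1% to 69.4% GC) 10 were higher and 39 lower. Elsewhere 754 were higher and a smaller number lower in the lowest group, and 101 were higher and 466 lower in the highest. Between double and single CSSs the order was turned around, with 12 higher and 225 lower elsewhere in the lowest group and 111 and 20 in the highest. Without the pair of chromosome 14 these were 5 higher and 19 lower in the lowest group and 11 and 8 in the highest. Chromosome 8 had 27.6% of its protein-coding genes in the highest group and 14.02% in the lowest.

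**Figure D3:**
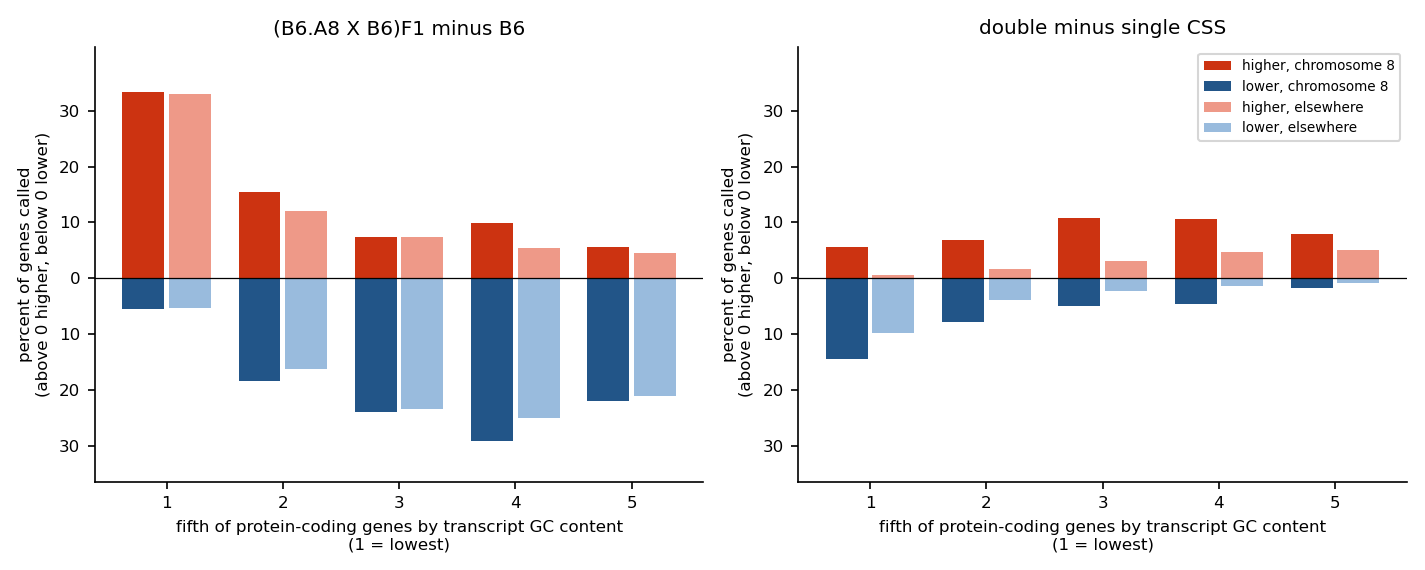
Bars show the percent of protein-coding genes called higher (above 0) or lower (below 0) in each of 5 groups by transcript GC content, for chromosome 8 (dark) and the other chromosomes (light), against B6 (left) and for double against single CSS (right). In the lowest group 754 of 2288 genes off chromosome 8 were higher against B6 and 225 were lower in the double CSSs.

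The fit was therefore repeated with the dependence on GC content and transcript length removed from each library, a setting chosen after the data were seen. It called 3298 genes (24.8%; 11.9% higher, 12.97% lower) against B6 and 538 (4.05%) in the double CSSs. On chromosome 8 there were 197 calls against B6, 97 higher and 100 lower, and 83 in the double CSSs. Elsewhere 3088 and 454 were called. Of the genes this fit called in both sets of mice, 41 had the same direction and 4 the opposite on chromosome 8 (18 opposite before), and 43 the same and 145 the opposite elsewhere (358 opposite before). What part GC content had in the remaining differences was not tested. Values from this fit are named as GC-corrected below.

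Outside chromosome 8, genes that differ between male and female liver were among those with the largest changes. Of 18 Mup genes measured, on chromosome 4, 16 were higher and none lower, against 12.9% higher among all genes, with a median log2 fold change of 1.69. The median over all genes tested, beside which this and the other list medians stand, was -0.010 against B6 and 0.0042 in the double CSSs. Mup11 lay between 17.97 and 1049.9 CPM (median 115) in B6 and between 500.2 and 1272 CPM (median 759) in (B6.A8 X B6)F1, a log2 fold change of 3.12 ± 0.47 (SE), adjusted p = 8.37e-08. Most B6 mice lay below the whole (B6.A8 X B6)F1 range, and the 2 highest B6 mice lay inside it. Mup17 lay between 1.19 and 99.9 CPM (median 4.82) and between 14.3 and 185 CPM (median 78.2), with a log2 fold change of 4.39 ± 0.68 (SE), adjusted p = 1.19e-07. Mup3, the most abundant of those named, rose from a median of 4814 CPM (1041 to 6828) to a median of 7772 CPM (6441 to 8339), with a log2 fold change of 0.83. Mup genes are near-identical copies, so reads may have been assigned among them with error. The GC-corrected fit also called 16 higher, with a median of 1.25.

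Other male-biased genes rose with them, 9 of 18 measured, Nudt7 of chromosome 8 among them, and none fell. The summed level of the 18 was not higher. It lay between 5179 and 12200 CPM (median 8268) in B6 and between 4832 and 9979 CPM (median 8080) in (B6.A8 X B6)F1. Elovl3, which elongates fatty acids, lay between 8.34 and 179 CPM (median 41.4) in B6 and between 44.7 and 172 CPM (median 124.2) in (B6.A8 X B6)F1, a log2 fold change of 1.88 ± 0.38 (SE), adjusted p = 4.26e-05. Slco1a1, an organic anion transporter, rose from a median of 348.6 CPM (89.3 to 629) to a median of 574.9 CPM (512.99 to 865), with a log2 fold change of 0.97, and Ugt2b1, a glucuronosyltransferase, with a log2 fold change of 0.58. With the GC correction 3 of the 18 were higher and 1 lower, against 11.9% higher and 12.97% lower among all genes in that fit. Most of the calls of this list were thus lost, while Elovl3 and Slco1a1 kept theirs (1.52 and 0.62).

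Female-biased genes went the other way, with 10 of 13 measured lower and 1 higher, and a median log2 fold change of -1.17. Cyp17a1, a steroid hydroxylase, lay between 24.9 and 205 CPM (median 73.9) in B6 and between 9.89 and 42.5 CPM (median 17.01) in (B6.A8 X B6)F1, a log2 fold change of -1.72 ± 0.35 (SE), adjusted p = 4.78e-05. Atp6v0d2, a subunit of the proton pump, lay between 2.57 and 27.4 CPM (median 6.65) and between 1.07 and 3.90 CPM (median 2.07), a log2 fold change of -1.96 ± 0.34 (SE), adjusted p = 2.45e-06. The groups overlapped for both genes, for Atp6v0d2 through the lowest B6 mouse alone. The cytochromes P450 Cyp2a4 and Cyp2b9 fell, with log2 fold changes of -3.34 and -3.27, with B6 medians of 2.69 and 4.12 CPM. With the GC correction 10 of 13 were lower and none higher. In the 32 single CSS mice, which lack the substitution, medians of sex-biased genes lay between those of B6 and (B6.A8 X B6)F1. They were 360 CPM for Mup11, 27.1 CPM for Mup17, 86.9 CPM for Elovl3, 42.4 CPM for Cyp17a1 and 4.44 CPM for Atp6v0d2.

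These lists differed in direction between the pairs of double and single CSSs. The median log2 fold change of the Mup genes was 0.35, 0.56, -1.28 and 0.38 for the pairs of chromosomes 3, 6, 14 and 17, and that of the female-biased genes was -0.31, -0.94, 0.60 and -0.74. The pair of chromosome 14 thus stood opposite to the other 3 in both lists. Averaged over the pairs, Mup17 had 0.91 ± 0.40 (SE), adjusted p = 0.153, and Atp6v0d2 -0.47 ± 0.22 (SE), adjusted p = 0.181, and 1 of the 18 Mup genes and 1 of the 13 female-biased genes were called, both lower. Without the pair of chromosome 14, 2 Mup genes were called, both higher, Mup17 among them (1.92, adjusted p = 0.0108), and 1 female-biased gene, lower.

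**Figure D4:**
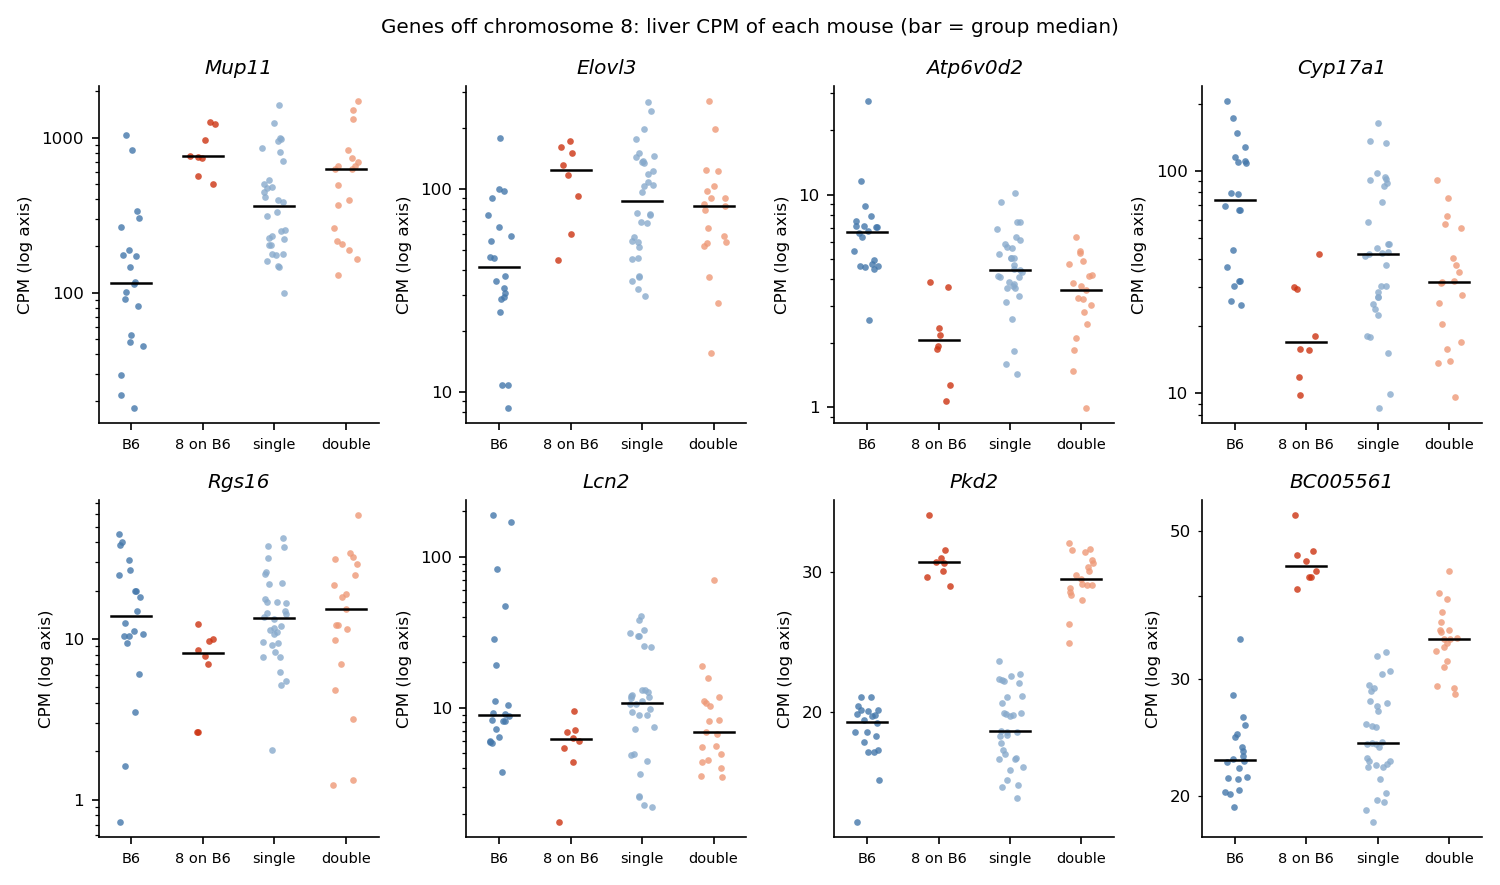
Each point is the CPM (log axis) of 1 mouse for 8 genes off chromosome 8, with a bar at the group median and the columns B6, (B6.A8 X B6)F1 ("8 on B6"), single CSSs and double CSSs with chromosome 8. Mup11, Elovl3, Atp6v0d2 and Cyp17a1 overlap between B6 and (B6.A8 X B6)F1, whereas Pkd2 and BC005561 do not.

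The enzymes that make glucose fell together. Of 20 genes of gluconeogenesis 16 were lower and none higher (16.7% lower among all genes), with a median log2 fold change of -0.50, and the GC-corrected fit called the same numbers with a median of -0.39. The counts of this and the following lists stand beside 16.7% lower and 12.9% higher among all genes against B6. In the double CSSs these shares were 3.62% and 3.08%. Pcx, pyruvate carboxylase, which opens the pathway, lay between 366.02 and 637 CPM (median 499) in B6 and between 196 and 296.98 CPM (median 248) in (B6.A8 X B6)F1. The groups did not overlap, and the log2 fold change was -0.80 ± 0.11 (SE), adjusted p = 3.68e-09. Pck1, the cytosolic carboxykinase, fell from a median of 3933 CPM (1242 to 5177) to a median of 2291 CPM (1705 to 3542), with a log2 fold change of -0.54 ± 0.14 (SE), adjusted p = 0.00153. Fbp1, fructose-1,6-bisphosphatase, had a log2 fold change of -0.49. Got1, the cytosolic partner of Got2 on chromosome 19, fell from a median of 644 CPM (279.8 to 1021) to a median of 272 CPM (186.6 to 361.4), with a log2 fold change of -1.004 ± 0.19 (SE), adjusted p = 2.22e-05. Ppargc1a, a coactivator of the fasting programme, fell, with a log2 fold change of -0.84. G6pc, the last enzyme, lay between 232.3 and 854 CPM (median 409) and between 231 and 537 CPM (median 352) and was not called (0.077, adjusted p = 0.834). Of the 20, 2 were called in the double CSSs, both higher, and the median over the list was 0.081. Without the pair of chromosome 14 none was called.

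Glycolysis, the reverse route, also had lower calls only, in 12 of 20 genes, with a median of -0.31. Gapdh (-0.47), Eno1 (-0.53), Pgam1 (-0.33) and Gpi1 (-0.44) fell, the last without overlap of the groups. Of 39 genes of amino acid catabolism and the urea cycle 27 were lower and 1 higher. Cps1, the entry enzyme of the urea cycle, fell from a median of 10035 CPM (6138 to 13634) to a median of 4670.3 CPM (3218 to 6516), with a log2 fold change of -0.82 ± 0.10 (SE), adjusted p = 1.76e-10. Fah, the last enzyme of tyrosine breakdown, and Agxt, which detoxifies glyoxylate, fell, with log2 fold changes of -0.47 and -0.82 without overlap. The GC-corrected fit called 9 of the 20 glycolytic genes and 19 of the 39 amino acid genes lower, against 12.97% of all genes in that fit. The double CSSs had no call among the former and 1, higher, among the latter, which was lost without the pair of chromosome 14.

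Of 29 measured targets of PPARalpha, the receptor that turns on fat burning in the fast, 18 were lower and none higher, with a median of -0.33, and 11 were lower with the GC correction. Cpt1a, which admits fatty acids to the mitochondrion, fell from a median of 798 CPM (499 to 1075) to a median of 471 CPM (354 to 563), with a log2 fold change of -0.72 ± 0.11 (SE), adjusted p = 1.00e-07, and Acadvl, the very long chain acyl-CoA dehydrogenase, with a log2 fold change of -0.31. Acsl1, the member on chromosome 8, was not called (-0.20, adjusted p = 0.183). The double CSSs had 6 calls among the 29, all higher (3.08% higher among all genes). By pair there were 10 higher for chromosome 14 and none for chromosomes 3, 6 and 17, and the mean without the pair of chromosome 14 had no call. The synthesis of fatty acids had 10 lower and 1 higher of 18, with Elovl5 (-0.76), Fads2 (-0.66), Fads1 (-0.49) and Acaca (-0.43) among the lower. Cholesterol synthesis had 6 lower of 24, 25.0% against 16.7% in the whole table, among them Lss, lanosterol synthase (-0.46). Lpin1, a phosphatidate phosphatase and coactivator induced by fasting, fell from a median of 306 CPM (64.6 to 547) to a median of 119 CPM (54.9 to 197), with a log2 fold change of -1.49.

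Of 24 apolipoproteins and lipoprotein genes 14 were lower and 2 higher, among them Apom (-0.44), Abca1 (-0.36) and Apoe (-0.24). Bile acid genes went both ways, with 7 lower and 4 higher of 21. Slc27a5, which couples bile acids to coenzyme A, fell without overlap (-0.43), the uptake carrier Slc10a1 fell, with a log2 fold change of -0.55, and Slco1a1 rose. Cyp7a1, the rate-limiting enzyme of bile acid synthesis, lay between 223 and 852 CPM (median 344) and between 280.3 and 789 CPM (median 365) and was not called (-0.018, adjusted p = 0.974).

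Secreted plasma proteins were lower. Of 35 coagulation and complement genes 18 were lower and 5 higher, and C3, the central complement protein, fell from a median of 6832 CPM (5189 to 9382) to a median of 3475 CPM (3033 to 4650.1) without overlap, with a log2 fold change of -0.80 ± 0.10 (SE), adjusted p = 8.69e-10. F2, prothrombin, and F5 fell, with log2 fold changes of -0.39 and -0.59. With the GC correction 22 were lower and 2 higher. Among 24 acute-phase genes, which rise in inflammation, 12 were lower and 1 higher. Serpina3n fell from a median of 550.0 CPM (336 to 1277) to a median of 265 CPM (206 to 395.1), with a log2 fold change of -0.85 ± 0.13 (SE), adjusted p = 2.32e-07, and Itih4 with a log2 fold change of -0.86. Lcn2 (-2.23) and Saa1 (-1.83) had larger fitted falls, yet their medians were close, 8.96 and 6.19 CPM for Lcn2 and 38.9 and 34.6 CPM for Saa1. For Lcn2 the 20 B6 mice lay between 3.76 and 187.6 CPM (median 8.96) and the 8 others between 1.76 and 9.502 CPM (median 6.19), so the high values were those of some B6 mice. The call of Saa1 was lost without replicate 3, 4, 5 or 8 of (B6.A8 X B6)F1 (adjusted p between 0.0531 and 0.0654).

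The renin-angiotensin list, in which Agt is the substrate, had 5 lower of 10 measured and none higher. Besides Agt they included the angiotensin receptor Agtr1a (-0.36) and the peptidase Anpep (-0.40). Iron genes had 9 lower and 2 higher of 23, with the transferrin receptor Tfr2 (-0.59) and transferrin, Trf (-0.39), lower without overlap. Metallothioneins and zinc transporters had 5 lower of 12, with Slc39a14 (-0.55) beside Mt1. ATF4 targets had 9 lower and 1 higher of 21, led in size by asparagine synthetase, Asns (-1.16). Endoplasmic reticulum chaperones had 6 lower and 3 higher of 26 and NRF2 targets 5 lower and 2 higher of 24, near the shares of all genes.

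Growth hormone and IGF genes had 8 lower and 3 higher of 19 (42.1% and 15.8%), against 16.7% and 12.9% of all genes. The growth hormone receptor Ghr rose from a median of 313 CPM (201.95 to 449) to a median of 386 CPM (316 to 432), with a log2 fold change of 0.33 ± 0.08 (SE), adjusted p = 0.000706. Igf1 rose, with a log2 fold change of 0.33, and Jak2, the kinase of the receptor, with a log2 fold change of 0.28, whereas the binding proteins Igfbp1 (-1.40), Igfbp2 (-0.66) and Igfbp4 (-0.41) fell. With the GC correction 1 was higher and 8 lower. Insulin and glucagon signalling had 11 lower and 1 higher of 27, among them Insr on chromosome 8 (-0.22), Grb14 (-0.35) and Gys2 (-0.70). Of 21 glucocorticoid-responsive genes 6 were lower, including Tat, Mt1 and Lcn2, and 1 was higher. The clock genes had 4 higher and 1 lower of 20, with Clock at 0.37. Rgs16, a regulator of G protein signalling with a strong daily and fasting rhythm in liver, fell, with a log2 fold change of -1.77 ± 0.52 (SE), adjusted p = 0.00508, and the leptin receptor Lepr with a log2 fold change of -1.57 ± 0.37 (SE), adjusted p = 0.000433. With the GC correction Rgs16 was no longer called (-1.18).

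Interferon-stimulated genes had 5 higher of 29 and none lower, 17.2% against 12.9% of all genes, with Ifit1 (0.61), Ifit2 (0.50), Irf7 (0.29) and Bst2 on chromosome 8 (0.32). Antigen presentation had 1 higher and 4 lower of 24 (4.17% and 16.7%), and the cell cycle 2 lower of 26 (7.69%), against 16.7% lower among all genes. Cytochromes P450 of families 1 to 3 had 2 higher and 9 lower of 31, which became 0 and 16 with the GC correction. Cytoplasmic ribosomal proteins had 4 higher and 9 lower of 54 (7.41% and 16.7%), against 12.9% and 16.7% of all genes. In the double CSSs 14 of them were lower, against 3.62% of all genes. Without the pair of chromosome 14, 3 were lower, against 0.632% of all genes. The respiratory chain had 8 higher and 18 lower of 35. Its lower members included Atp5b (-0.31) and Ndufv1 (-0.31) and its higher ones Ndufa4 (0.44) and, on chromosome 8, Ndufa13 (0.19).

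**Figure D5:**
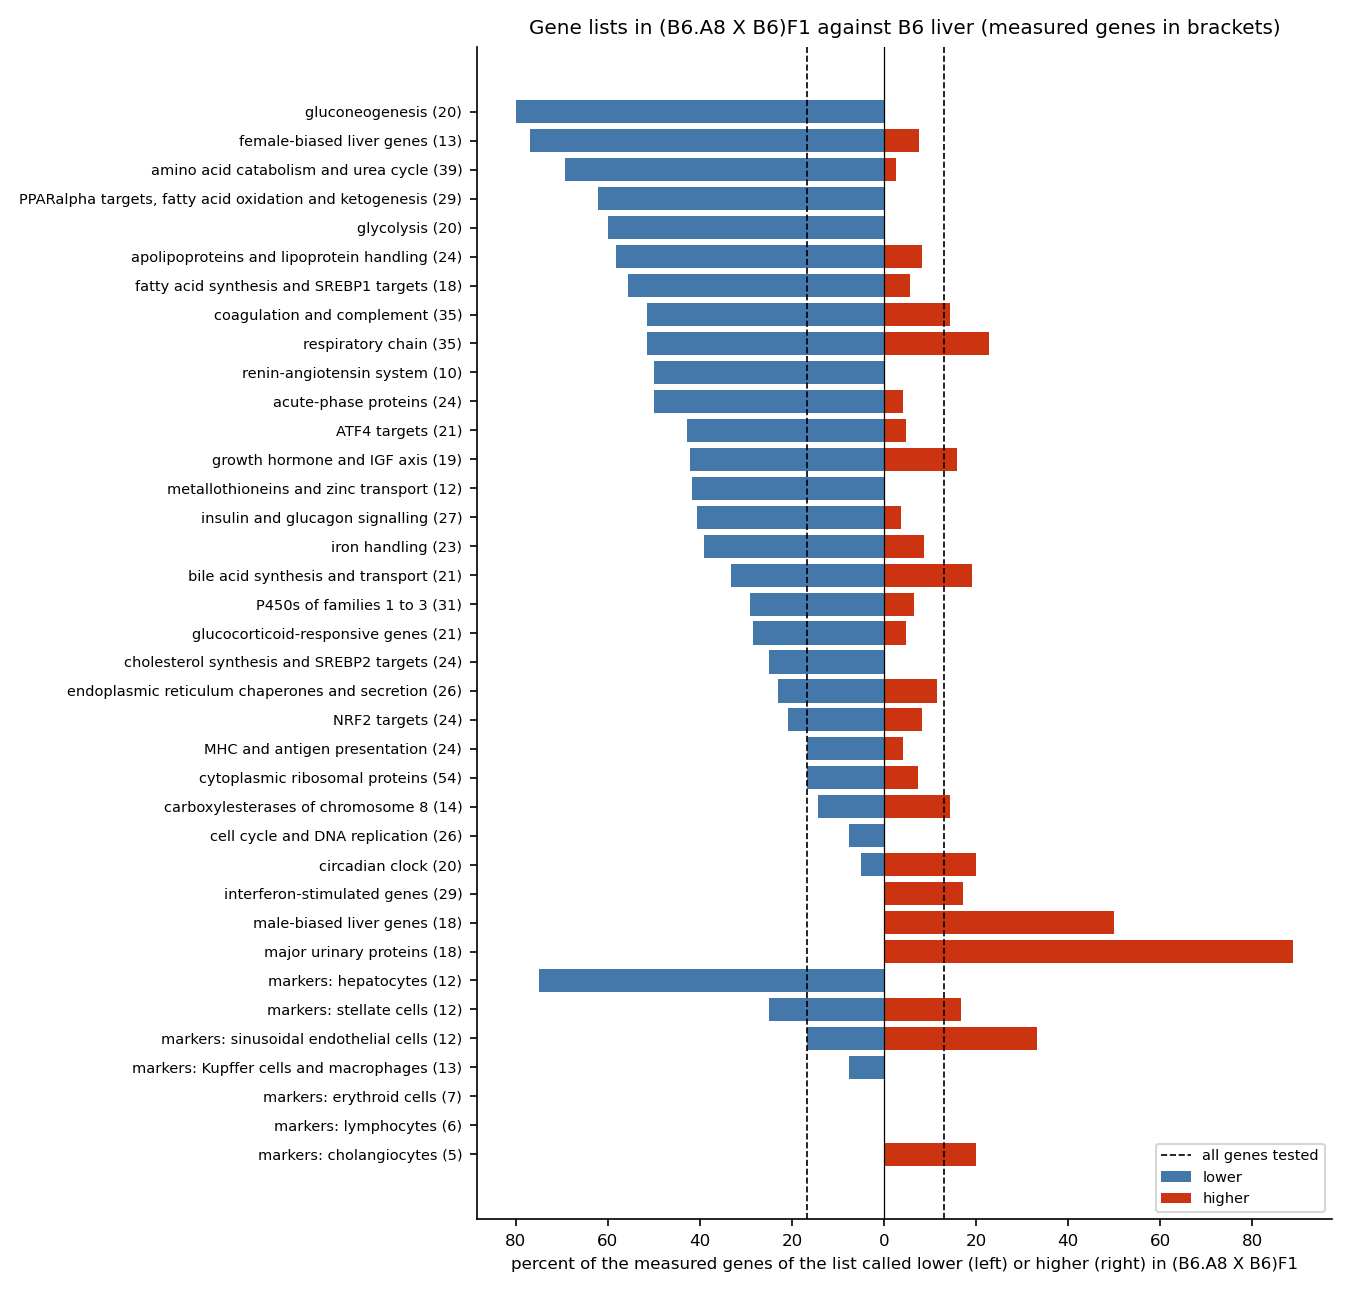
Bars show, for each list, the percent of its measured genes (number in brackets) called lower (left) or higher (right) in (B6.A8 X B6)F1 against B6, and dashed lines mark the shares among all genes, 16.7% lower and 12.9% higher. Gluconeogenesis and female-biased genes reach furthest to the left and major urinary proteins furthest to the right.

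Level moved with direction across all protein-coding genes. The median log2 fold change was -0.17 for genes with an average log2 CPM of 8 to 10 and -0.25 for those above 10, and of the 91 genes above 10, 49 were lower and 7 higher. The part of level in the counts of lower genes per list was not tested. The defining hepatocyte genes moved too: 9 of 12 were lower and none higher, with Alb at -0.48 and Ahsg at -0.50, the latter without overlap.

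Markers of other liver cells were counted too, beside 29.6% of all genes called. Of 13 Kupffer cell and macrophage markers 1 was lower, Marco (-1.18), while in the double CSSs 7 were lower, against 16.7% and 3.62% lower among all genes. By pair, 3 were called for chromosome 14, all lower, and none for the others, and the mean without the pair of chromosome 14 had 3 lower. Their summed level lay between 470.0 and 741 CPM (median 563) in B6 and between 453 and 934 CPM (median 602) in (B6.A8 X B6)F1. Sinusoidal endothelial markers had 4 higher and 2 lower of 12, with Clec4g on chromosome 8 (0.54) and Fcgr2b (0.34) higher. Stellate cell markers had 2 higher, with Lrat at 0.38, and 3 lower, the collagens Col1a1 (-0.80), Col1a2 (-0.39) and Col3a1 (-0.66). Sox9 was the 1 cholangiocyte marker of 5 called higher (0.53), Cela1 the 1 acinar marker measured, higher (0.62), and Fabp4 and Cidec the 2 adipocyte markers of 3 called lower. None of 6 lymphocyte, 2 neutrophil and 7 erythroid markers was called.

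A small number of genes off chromosome 8 changed in the same direction in both sets of mice, 15 higher and 16 lower on 16 chromosomes. Pkd2, which encodes the calcium channel polycystin-2, was the clearest. It lay between 14.5 and 20.9 CPM (median 19.5) in B6, between 28.9 and 35.4 CPM (median 30.9) in (B6.A8 X B6)F1, between 24.5 and 32.6 CPM (median 29.5) in the double CSSs and between 15.6 and 23.2 CPM (median 18.9) in the single ones. Neither pair of groups overlapped, and the log2 fold changes were 0.56 ± 0.059 (SE), adjusted p = 1.18e-13, against B6, and 0.56 ± 0.039 (SE), adjusted p = 4.44e-25, in the double CSSs. Within the pairs of chromosomes 3, 6, 14 and 17 they were 0.58, 0.55, 0.59 and 0.52.

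Pkd2 did not stand alone at its place on chromosome 5. BC005561, D930016D06Rik and Zfp951 follow it, and the 4 genes, with starts between 104459450 and 104813169 on GRCm38 (354 kb), were all those tested in that stretch. Its bounds were the starts of Pkd2 and Zfp951 themselves, and genes beyond them are not described. All 4 rose in both sets, and for all 4 the CPM of (B6.A8 X B6)F1 lay above those of B6 without overlap. BC005561 lay between 19.3 and 34.5 CPM (median 22.7) and between 40.9 and 52.9 CPM (median 44.4), with log2 fold changes of 0.90 against B6 and 0.40 in the double CSSs. The noncoding D930016D06Rik had 1.09 and 0.58, and the zinc finger gene Zfp951 0.80 and 0.33. For BC005561, D930016D06Rik and Zfp951 the effect against B6 was the larger by the test of the difference (adjusted p = 9.42e-07, 0.000189 and 0.0137).

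Neighbours also moved together on chromosome 15, namely Itga5, the fibronectin receptor subunit, and Nckap1l, an actin regulator of blood cells. Their starts are 103344286 and 103453794, and no other gene tested started between them. These bounds were set by the genes themselves, and genes beyond them are not described. Itga5 rose, with log2 fold changes of 0.33 and 0.48, and Nckap1l with log2 fold changes of 0.44 and 0.60. Zkscan3, a zinc finger repressor on chromosome 13, lay between 38.8 and 77.3 CPM (median 59.2) in B6 and between 83.7 and 116.5 CPM (median 94.1) in (B6.A8 X B6)F1, without overlap, with log2 fold changes of 0.46 and 0.45. Among the genes lower in both were Sp140 (-0.81 and -0.85), Ccdc30 (-0.75 and -0.55), the hepcidin gene Hamp2 (-1.001 and -0.62), the transporter Slc22a26 (-2.38 and -1.29) and the sulfotransferase Sult1a1 (-0.60 and -0.31).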

How the data were processed

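RNA was taken from the caudate lobe of the liver and sequenced as stranded total RNA, single-end. Per the study's methods, the authors aligned the reads to mm10 with TopHat2 and the unmapped reads to an individualized A/J genome made with Seqnature, counted genes with HTSeq-count on GENCODE vM7, and deposited raw counts per gene after removing genes with few counts. Every gene in the deposited table reached 15 counts in 25.3% of the mice or more, and no other filter was applied here. Genes were placed on GRCm38 through GENCODE vM21 by identifier, which placed 13242 of 13289; the other 47 entered the counts over all genes only. The authors name strains with the dam first, whereas the labels, which are used here, put the sire first.

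The counts were fitted with edgeR 4.0.16 (R 4.3.3; TMM, quasi-likelihood F-test, Benjamini-Hochberg adjustment over all genes) on all 154 mice with a mean per strain and 5 surrogate variables from svaseq (sva 3.50.0). The standard error (SE) of a log2 fold change is its size divided by the square root of F. Contrasts were (B6.A8 X B6)F1 minus B6, the mean of double minus single CSS over 4 pairs, and their difference. The contrasts share the dispersions and surrogate variables. DESeq2 1.42.0 served alternatives. The script was tested on simulated data. One mouse of a strain that enters none of these contrasts had Y-linked counts near 0 and stayed in the shared fit.

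The genes named were the 12 largest increases, 12 largest decreases and 10 smallest p-values among called genes of chromosome 8 whose average log2 CPM was 1 or more, the 10, 10 and 10 of the other chromosomes, the 4 smallest p-values of each of the 30 pathway and 10 marker lists, list members on chromosome 8, and Agt. Genes outside this rule, among them those changed in both sets of mice, were chosen after their values were seen. Some genes that the rule covers, and a sequence, are not reported here. The members and lists were chosen with earlier results of these data known. Replicates were single mice, bred in at least 3 cages per cross per the methods, and no 2 mice of a group agreed within sampling noise.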

Additional observations from a re-analysis of the deposited data

Results flagged for a closer look

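Among the 8 (B6.A8 X B6)F1 mice, replicate 1 stood apart in Ctsa, a lysosomal carboxypeptidase gene, with 83.9 CPM against 65.8 CPM in the nearest mouse. On the log2 scale its gap was 0.623 of the range of the group, above Dixon's critical value for 8 samples. Chance alone puts a mouse apart in about 1 in 20 groups, and 59 named genes were examined.

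For 41 of the 59 named genes the effect of the substitution in the double CSSs differed from that against B6 by the test of the difference, against 31.9% of all genes. The named genes were chosen by the size or p-value of their effect against B6, which the difference subtracts. That choice by itself raises the share called and favours the signs given below, so no conclusion is drawn from either. Without the pair of chromosome 14, 35 of the 41 were still called with the same sign (24.5% of all genes). The values that follow are the log2 fold change of double against single CSS minus that of (B6.A8 X B6)F1 against B6. They were negative for genes that had risen against B6: Mup17 (-3.49), Mup11 (-2.54), Mup5 (-2.38), Mup18 (-2.35), Mup-ps18 (-2.21), Mup12 (-2.17), Elovl3 (-2.12), Mup9 (-2.01), Mup16 (-1.87) and Mup7 (-1.84), and Snord13 (-1.34), Snora68 (-1.27), Gm26397 (-0.97), C1galt1 (-0.61), D930016D06Rik (-0.52), BC005561 (-0.51), Glod4 (-0.49), Gm26853 (-0.36) and Spcs3 (-0.34). On chromosome 8 they were positive for genes that had fallen against B6: Gcdh (0.24), Lcat (0.48), Man2b1 (0.49), Galns (0.53), Hmox1 (0.55), Gpt2 (0.64), Agt (0.66), Got2 (0.71), Cdh1 (0.71), Slc7a2 (0.80), Mt1 (0.82) and Tat (0.97). Elsewhere the positive values were Puf60 (0.48), Ctsa (0.54), Fah (0.56), Serpinf1 (0.58), Tfr2 (0.75), Lepr (1.14), Cyp17a1 (1.17), Atp6v0d2 (1.49), Lcn2 (1.86) and Rgs16 (2.30).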

How the results depend on the processing

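Shares are of the genes tested on chromosome 8 and elsewhere, in this order, and were 33.1% and 29.5% called against B6 and 14.6% and 6.25% in the double CSSs. They depended on the surrogate variables and on the pair of chromosome 14, without which 6.95% and 0.860% were called in the double CSSs (added after the data were seen). With 10 of them, 13.3% and 8.995% were called against B6, and 9.26% and 1.48% in the double CSSs. With none, 30.2% and 20.6% were called in the double CSSs. Fitted on only the mice compared, the double CSSs gave 27.1% and 18.6% without surrogate variables and 7.67% and 1.31% with 2. For genes elsewhere in the double CSSs, total counts in place of TMM gave 9.55%, and the GC and length correction, added after the data were seen, 3.62%. A filter of 15 counts in 75% of the mice gave 456 calls there, 3.63% of the 12551 genes, though it left only 11181. The same filter in every mouse gave 479 calls, 3.82% of the 12551 genes, though it left only 8866. Genes removed by a filter thus count as not called in these shares, and the shares of the genes left were larger. With the small RNA level as a covariate, also added later, 17.6% of genes elsewhere were called against B6, and Snora68 changed sign (-0.21). At an FDR of 0.01, 19.3% of genes elsewhere were called against B6, and 7.96% and 1.78% in the double CSSs. In the other settings run, the 4 shares stayed within 1.5 times of the values given first. The cause of the changes was not tested, apart from the stricter threshold, which follows from its construction. For the filters the surrogate variables were estimated anew on the genes left, so the smaller set of genes was not the only change.

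Without each (B6.A8 X B6)F1 mouse in turn, 30.4% to 34.3% of the genes of chromosome 8 and 26.3% to 29.8% elsewhere were called against B6. Of 948 comparisons for 44 named genes, 906 kept direction and call, 41 lost the call and 1 changed sign. These genes were chosen mainly for large effects, which by itself favours a kept call. The losses were uneven. With 15 counts in every mouse, 8 of the 27 genes left lost the call, and with 10 surrogate variables 7 of 44 did. No paired analysis was possible because the replicate numbers were given in accession order and pair no mice. Genes of low CPM, such as Fut10, rest on few counts per mouse.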
